A study of Mus musculus with 4 samples.

Results

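The cells described here are the endogenous, GFP-negative cells of 2 mouse tracheas that had been injured and then given transplanted airway basal cells. All barcodes of the 2 GFP-negative libraries were taken, and those with at least 500 detected genes and at most 20% of UMIs (unique molecular identifiers, 1 per counted RNA molecule) from mitochondrially encoded genes were kept. This left 3220 of the 6624 kept cells of the series: 1851 from the animal that had received iBCs (the iBC host), induced basal cells made from pluripotent stem cells, and 1369 from the animal that had received primary basal cells (the primary BC host). Both recipients were adult wild type mice given 2% polidocanol, a detergent that strips the airway lining, and 6000000 cells into the trachea 5 hours later. The iBC host carries the strain label 129 X1/S1 and was examined 192 days after transplantation. The primary BC host carries the label C57BL/6 and was examined 69 days after transplantation. Cells were sorted live on Calcein Blue, and GFP marked cells descended from the transplant, so the GFP-negative gate was meant to hold the cells of the host. In these GFP-negative libraries 30 barcodes of the primary BC host and 1 of the iBC host carried reporter UMIs. The source of these UMIs was not tested. Reporter RNA was seen in 98.9% of the GFP-positive cells of the primary BC host but in 48.3% of those of the iBC host, so in the latter its absence says less. Each trachea is 1 animal and each gate 1 library. Strain label, days, kind of transplant, animal and library therefore differ together between the sides and cannot be told apart, and no test between them could be made.

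The tracheal epithelium is maintained by basal cells, which lie on the basement membrane, express Krt5 and Trp63, and give rise to secretory cells and multiciliated cells. Secretory cells release secretoglobins, mucins and antimicrobial proteins into the airway fluid, and ciliated cells move that fluid out of the lung. After a detergent injury that spares some basal cells, these divide and rebuild the layer, and transplanted basal cells compete with them for the bared surface.

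Cells were placed in classes by marker scores. A score is the mean over a class's markers of log2 of 1 plus the UMIs per 10000 of the cell, and a cell entered a class when it passed that cut and no other. Basal cells (Krt5, Trp63, Krt15, Dapl1, Aqp3 and Ngfr, score of 2 or more) numbered 756 in the iBC host and 710 in the primary BC host. Secretory cells (7 markers led by Scgb1a1, score of 3.5 or more) numbered 546 and 234. Ciliated cells (9 markers led by Foxj1, score of 1.5 or more) numbered 359 and 193. The ciliated cut lay in an almost empty stretch of the score, with 14 and 7 cells within 0.25 of it. The basal and secretory cuts were less clean, with 115 and 60 cells near the basal cut and 77 and 58 near the secretory cut. These classes are ranges of a score. Median basal scores in the basal class were 2.83 and 3.02, and its median secretory scores were 2.5 and 2.4, above 0 because secretory RNA was widespread. In the ciliated class the median secretory scores were 2.0 and 1.6, and in the secretory class the median basal scores were 0.65 and 0.68. Each class had more of its own markers than of any other class's among its 10 leading genes. Dcn was the only marker of another type there: in the basal class of the iBC host it led with the other 5 fibroblast markers all at 0.

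**Figure D1:**
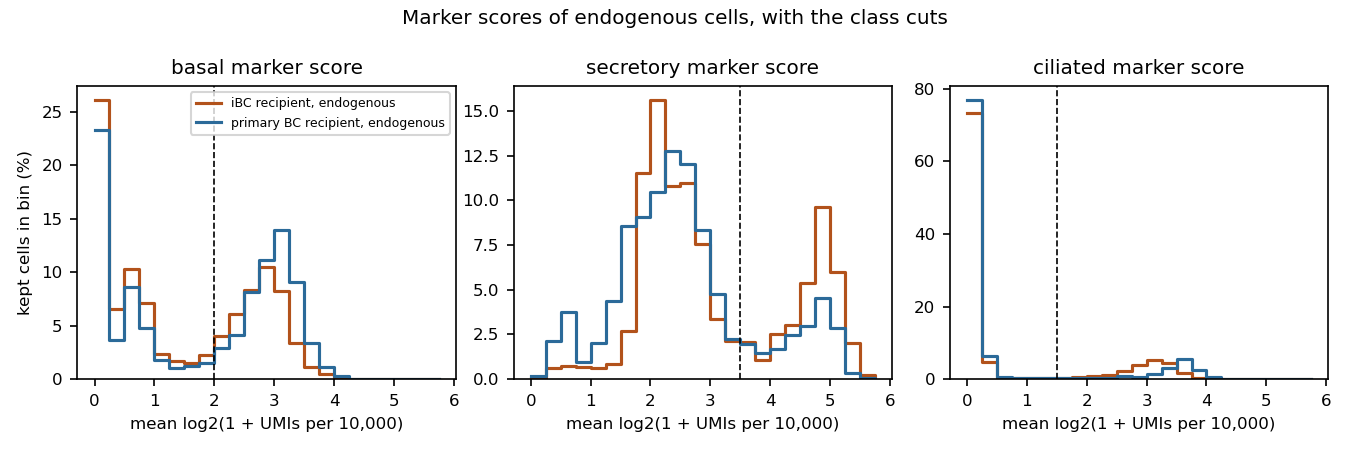
Distribution of the basal, secretory and ciliated marker scores over the kept endogenous cells. The x axis is the score (mean log2 of 1 plus UMIs per 10000), the y axis the share of cells per bin of 0.25, lines are the 2 libraries and the dashed lines are the cuts at 2, 3.5 and 1.5. Both libraries have a high and a low group for each score, with few cells between them for the ciliated score.

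Both libraries were deep. They held 21813234 UMIs in the iBC host and 24808125 UMIs in the primary BC host, with medians of 9410 and 14574 UMIs and of 2872 and 3830 genes per kept cell. Median mitochondrial shares were 5.37% and 6.59%. The depth gap went with every class: basal cells had median totals of 7823 and 12280 UMIs, secretory cells 16700 and 27180, and ciliated cells 11959 and 18804. The libraries stood apart from each other. When both were clustered together without integration, 14 of 19 clusters drew at least 90% of their cells from 1 library, and these held 89.4% of the cells. Endogenous basal cells lay mainly in clusters 1, 6, 9, 11 and 13 in the iBC host and in clusters 0, 7 and 10 in the primary BC host. Secretory cells lay in clusters 3 and 5 against 4, and ciliated cells in clusters 2 and 14 against 8. The 2 endogenous libraries shared 0 cell barcodes.

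The first comparison asks how the makeup of the endogenous cells differed. Basal cells were 40.8% (95% Clopper-Pearson interval 38.6 to 43.1) of the kept cells in the iBC host and 51.9% (49.2 to 54.5) in the primary BC host. Secretory cells were 29.5% (27.4 to 31.6) and 17.1% (15.1 to 19.2), and ciliated cells 19.4% (17.6 to 21.3) and 14.1% (12.3 to 16.1). The differences in share were thus towards secretory and ciliated cells in the iBC host. These intervals, and all below, cover counting error only. Digestion and sorting can set such shares, and the depth of the cells moved with them; their part was not tested.

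Some rarer types were found more often in the primary BC host. Ionocytes, the cells rich in the chloride channel Cftr and the factor Foxi1, were 9 of 1369 cells there (0.66%, 0.30 to 1.24) and 0 of 1851 in the iBC host, which allows a share of up to 0.162% by the limit of 3 counts (the upper Clopper-Pearson bound is 0.199%). Tuft cells, chemosensory cells with Trpm5, were 11 (0.80%) against 4 (0.22%). Neuroendocrine cells were 3 and 3. Deuterosomal cells, the precursors of ciliated cells that multiply their centrioles, were 4 and 1. Cells with a cycling score of 1.5 or more, in any class, were 25 (1.83%, 1.19 to 2.68) in the primary BC host and 10 (0.54%, 0.26 to 0.99) in the iBC host. For ionocytes and cycling cells the intervals of the sides did not overlap, and for tuft and deuterosomal cells they did. Scores were taken without thinning and the library of the primary BC host was deeper. The part of depth in these counts was not tested. The secretory, basal and ciliated classes aside, 107 and 80 cells passed no cut and 47 and 51 passed more than 1.

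Immune cells differed in number and in kind. They were 24 (1.30%, 0.83 to 1.92) of the cells in the iBC host and 65 (4.75%, 3.68 to 6.01) in the primary BC host. Macrophage genes marked those of the primary BC host: C1qa, a complement subunit made by macrophages, had 3905 CPM with a UMI in 45 of 65 cells, and Csf1r, the macrophage growth factor receptor, had 484 CPM with a UMI in 50. In the iBC host C1qa was found in 1 of 24 cells and Csf1r in 3. Cd68 and Itgax, also on the myeloid list, were each found in 13 of 24 cells there. In the primary BC host they were found in 56 and 51 of 65. The 6 myeloid markers summed to 8516 CPM in the immune cells of the primary BC host and to 932 CPM in those of the iBC host; this list holds Lyz2, which is also high in secretory cells. Genes of T cells went the other way, with the 5 T cell markers at 520 CPM in the iBC host and at 0 in the primary BC host; each of Cd3e, Cd3g and Cd3d was found in 2 cells. Immune cells of both animals carried MHC class II RNA. Cd74 had 13760 and 22821 CPM and was found in 23 of 24 and 65 of 65 cells. In the iBC host the leading genes of immune cells were Cd52, H2-Eb1 and H2-Ab1, with Irf8, a factor of dendritic cells and B cells, also among the first 10. In the primary BC host they were Igkc, Cd74 and H2-Eb1, with C1qa, Igha and Jchain also among the first 10. Igkc had 12696 CPM there, from 3 of 65 cells.

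Expression was then compared within each class. UMIs were summed over the cells of a class and scaled to a common total for each class (CPM). Ratios are iBC host over primary BC host, as log2 of CPM plus 5, relative to the median of all genes tested, and folds are ratios of CPM with exact Poisson 95% intervals. Genes with at least 20 CPM on either side were tested, and a gene is called higher or lower when it differed at least 2-fold. In the basal class 88 of 6316 genes (1.39%) were called higher in the iBC host and 95 (1.5%) lower. In the secretory class 82 of 4697 (1.75%) were higher and 97 (2.07%) lower, and in the ciliated class 169 of 7021 (2.41%) were higher and 138 (1.97%) lower. The median of all genes lay at -0.01, -0.14 and -0.03. Without centring on it, the secretory counts became 66 higher and 120 lower. Most genes were close: the median absolute ratio was 0.19, 0.21 and 0.20 (log2) in the 3 classes. The same comparison between the donor-derived libraries of these animals, where transplanted cells of different origin are set against each other, called 10.2%, 12.8% and 10.2% of genes in either direction, against 2.9%, 3.81% and 4.37% in the endogenous cells.

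**Figure D2:**
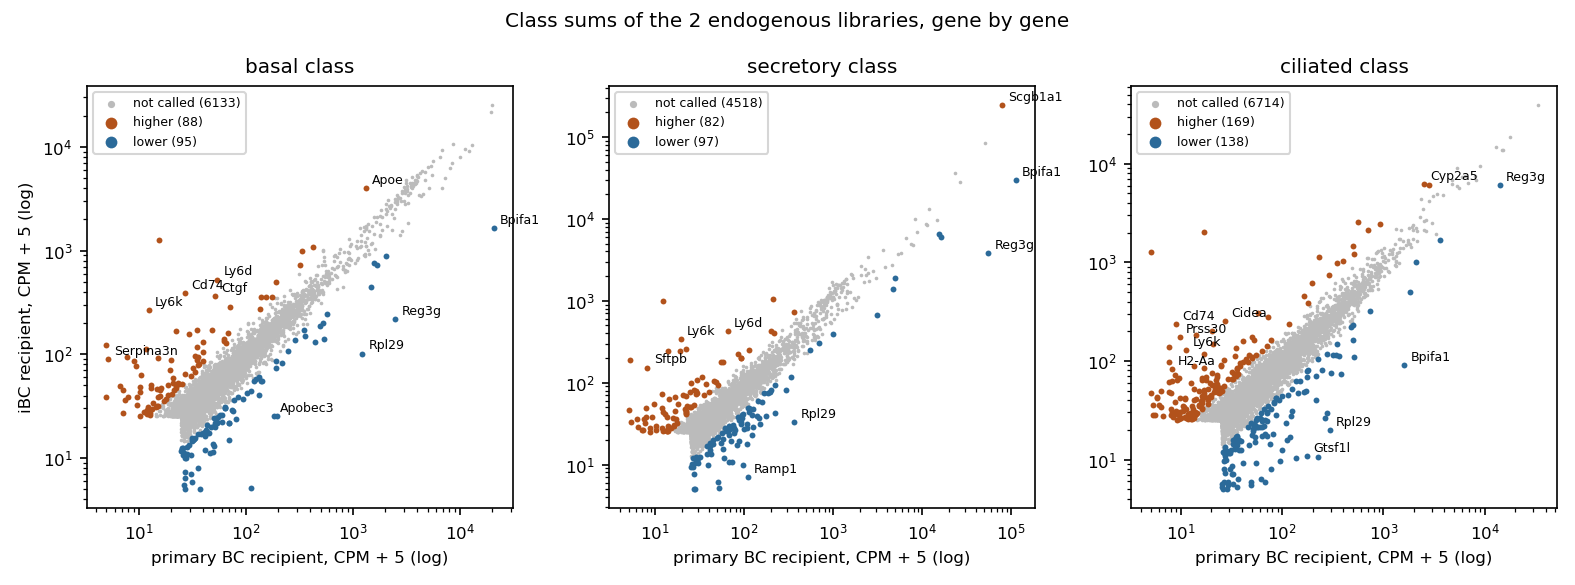
Class sums of the endogenous cells, 1 point per gene tested, with CPM plus 5 in the primary BC host on the x axis and in the iBC host on the y axis (both log axes). Orange points are called higher and blue points lower, with their number in the legend; Cd74 and Ly6k stand above the diagonal in the basal class and Bpifa1, Reg3g and Rpl29 below it in all 3 classes.

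MHC class II genes were among those with the highest ratios in endogenous epithelial cells of the iBC host. These genes encode the molecules that show peptides to CD4 T cells; they are made by dendritic cells, macrophages and B cells and can also be made by epithelia exposed to interferon gamma. Of 10 genes on the list, 4 were measured in the basal class, 4 in the secretory and 5 in the ciliated, and every measured member was called higher, with medians of 3.26, 2.71 and 3.07. The members entered through their level in the iBC host, so this count is largely fixed by the filter; without it the medians were 1.61, 1.25 and 1.10. Cd74, the invariant chain that guides class II molecules through the cell (ENSMUSG00000024610, chromosome 18, 60803848 to 60812652, protein coding, build GRCm38), had 381 CPM in the basal class of the iBC host and 22 CPM in the same class of the primary BC host, a 17.3-fold difference (15 to 20). In the secretory class it had 239 and 13.7 CPM, and in the ciliated class 230 and 3.92 CPM. The fold of Cd74 was 17.4 in the secretory class and 58.6 (35.4 to 105) in the ciliated class, where 15 UMIs were counted in the primary BC host.

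The class II chains were also called higher in each class. H2-Aa, the alpha chain of the I-A molecule (chromosome 17, 34282744 to 34287823, protein coding), had 80.3 and 4.04 CPM in the basal class, 43.7 and 2.84 CPM in the secretory class and 77.9 and 3.14 CPM in the ciliated class. Its partner H2-Ab1 had 107.8 and 6.73 CPM, 50.4 and 4.74 CPM, and 66.4 and 3.66 CPM in the same order. H2-Eb1, the beta chain of I-E, had 72.1 and 4.45 CPM in the basal class, 26.9 and 2.69 CPM in the secretory class and 42.4 and 2.88 CPM in the ciliated class. H2-DMb1, part of the complex that loads peptides, was measured only in the ciliated class, at 21.2 and 8.37 CPM. The H2 genes share stretches of sequence, so their values are uncertain in how reads were split among them.

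The upstream sequences are shown because H2-Aa and H2-Eb1 carry the Y box, an inverted CCAAT element of the promoters of class II genes, which is read by the factor NF-Y. The 250 bases before each start site are given 5′ to 3′ on the gene's strand, from RefSeq (GRCm38.p6), with the match to CTGATTGG in capitals; both strands were searched.
H2-Aa: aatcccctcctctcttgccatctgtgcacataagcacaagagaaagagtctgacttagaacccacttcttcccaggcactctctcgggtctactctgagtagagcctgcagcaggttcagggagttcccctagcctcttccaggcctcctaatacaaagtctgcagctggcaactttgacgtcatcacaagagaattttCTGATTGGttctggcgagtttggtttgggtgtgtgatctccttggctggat
H2-Eb1: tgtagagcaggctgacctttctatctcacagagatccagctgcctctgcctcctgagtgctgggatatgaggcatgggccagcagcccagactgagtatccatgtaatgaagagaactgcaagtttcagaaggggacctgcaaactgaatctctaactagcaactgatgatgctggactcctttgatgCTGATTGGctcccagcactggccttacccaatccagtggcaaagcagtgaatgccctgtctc
The H2-Aa window is chr17:34287824-34288073 on the minus strand and the H2-Eb1 window chr17:34305617-34305866 on the plus strand. The match begins 51 bases before the start site of H2-Aa and 62 bases before that of H2-Eb1. Of the 10 genes of the list, 7 had a promoter entry and 3 of those held the 8 letters, as did 3.83% of the 32851 promoter windows of the table. The same letters also stand, unmarked, in the windows of Hspa1a and Hspa1b shown further below. A match is a description of the letters and no evidence of binding.

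Class II RNA was found in a minority of epithelial cells. To compare at equal depth, cells were thinned to 5000 UMIs, which left out 38, 20 and 12 shallower basal, secretory and ciliated cells in the iBC host and 2, 0 and 0 in the primary BC host. A UMI of Cd74 was then seen in 31.3% (28.0 to 34.9) of basal cells in the iBC host and 5.51% (3.95 to 7.45) in the primary BC host, and without thinning in 37.3% and 12.8%. In the ciliated class the thinned shares were 19.9% (15.8 to 24.5) and 1.04% (0.13 to 3.69), and in the secretory class 30.8% and 6.84%. The 10% of basal cells with most Cd74 held 72.9% of its thinned UMIs in the iBC host. For H2-Aa the thinned basal shares were 15.2% and 2.12%. The intervals of the sides did not overlap for Cd74 or H2-Aa in any class.

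Immune cells are the other source of class II RNA in a trachea, and their markers were measured in the same sums. The 8 immune markers (Ptprc, Cd52, Coro1a, Laptm5, Tyrobp, Fcer1g, Cd53 and Srgn) summed to 0.69 to 5.98 CPM in the 3 epithelial classes of the iBC host and to 1.31 to 3.95 CPM in those of the primary BC host, against 6886 and 8542 CPM in immune cells. These markers also form the immune gate. Cells with an immune score of 1.5 or more could not enter an epithelial class, so low sums are partly fixed by the gate. In the ciliated class of the iBC host 6 of the 8 were at 0, Ptprc, Cd52 and Tyrobp among them. The 6 myeloid markers summed to 332 and 454 CPM in the basal classes of the iBC and primary BC hosts, 6720 and 15559 CPM in the secretory and 4491 and 2527 CPM in the ciliated classes, mostly from Lyz2, which secretory cells also express (6574 and 15369 CPM). In the iBC host C1qa was at 0 in all 3 epithelial classes, and Itgax in the basal and ciliated classes. C1qa was found in only 1 of 24 immune cells of that host, so its absence says little. The part of immune RNA in the epithelial values was not tested.

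MHC class I, which shows peptides to CD8 T cells, was also higher for some members. Of the class I list, 4 of 15 measured members were called higher in the basal class, 1 of 12 in the secretory and 3 of 15 in the ciliated, and 0 lower, with medians of 0.58, 0.25 and 0.58. H2-Q7, a class I molecule of the Qa region, had 162 and 17.5 CPM in the basal class, 62.8 and 17.1 CPM in the secretory class and 131 and 30.1 CPM in the ciliated class. B2m, the light chain of every class I molecule, had 723 and 315 CPM in the basal class and 975 and 341 CPM in the ciliated class, and in the secretory class, where it was not called, 592 and 378 CPM. H2-Q6, at 46.0 and 7.97 CPM in the basal class, is a near copy of H2-Q7, and the split of reads between them is uncertain.

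Interferon-stimulated genes did not move as 1 group. In the basal class 2 of 14 measured members were higher and 2 lower, with a median of -0.38. Cxcl10, a chemokine for T cells, had 34.0 and 3 CPM and Iigp1, a guanosine triphosphatase that is induced by interferon gamma, 41.9 and 11.1 CPM. Ifi27l2a, a gene of type I interferon, had 126 and 438 CPM, and Oasl2 13.4 and 37.2 CPM. Members of the list thus lay on both sides in basal cells. In the secretory class 0 of 13 were higher and 2 lower, with a median of 0.56 (0.32 with equal weight per cell, 0.18 after thinning and 0.24 without a filter), again Ifi27l2a (70.0 and 182 CPM) and Oasl2. In the ciliated class 5 of 17 were higher and 0 lower, with a median of 0.75: Isg15, a ubiquitin-like protein, had 96.8 and 21.7 CPM, and Ifit3, which binds viral RNA, 83.2 and 19.9 CPM. Thinned shares of ciliated cells with Ifit3 were 12.4% (9.12 to 16.3) and 6.74% (3.63 to 11.2), and these intervals overlap.

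**Figure D3:**
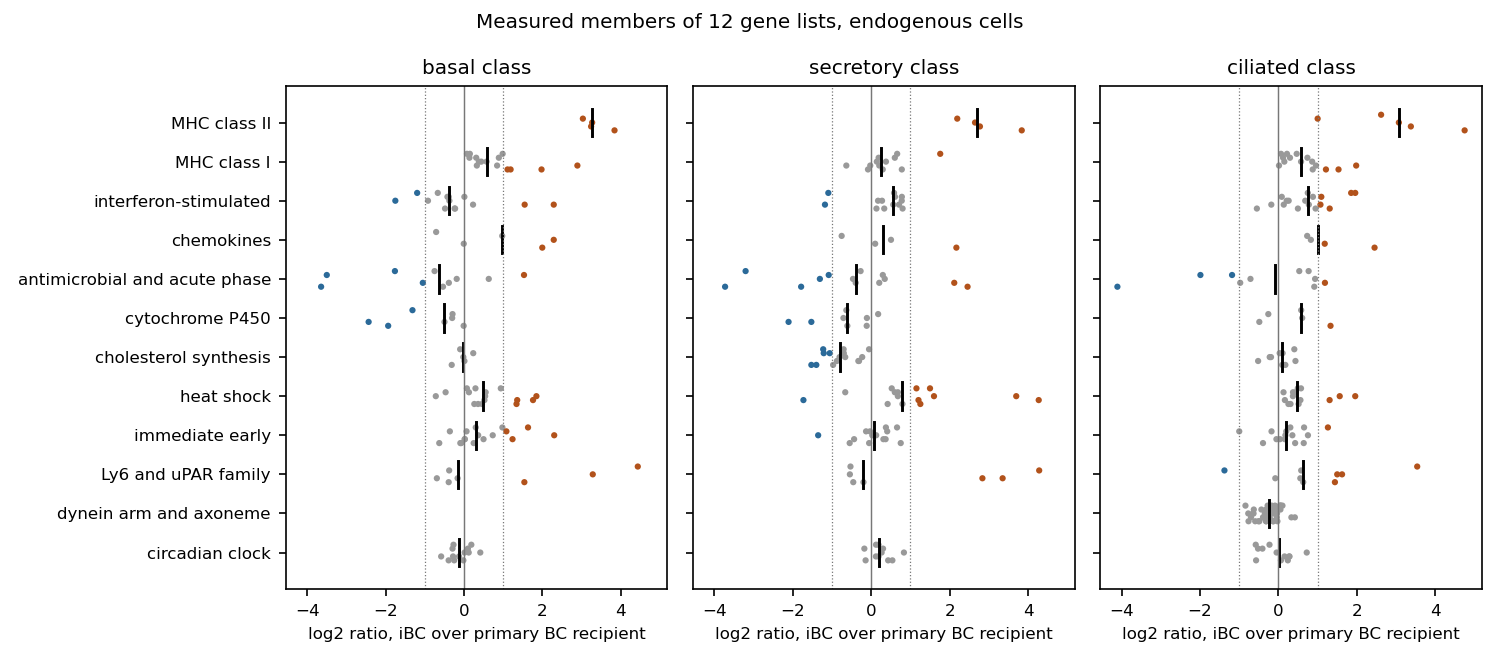
Measured members of 12 gene lists in each endogenous class, 1 point per gene. The x axis is the log2 ratio of CPM plus 5, iBC over primary BC host, relative to the median of all genes; black bars are list medians where at least 3 members were measured, dotted lines mark 2-fold, orange and blue points are called higher and lower. All measured MHC class II members lie at or beyond 2-fold higher in the 3 classes, and no dynein arm or clock gene is called.

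Several antimicrobial genes were lower in the iBC host, and a few were higher. Reg3g, a lectin that kills Gram-positive bacteria (chromosome 6, 78466269 to 78468872, protein coding), had 3800 CPM in the secretory class of the iBC host and 55546 CPM in the other host, 14.6-fold lower (14.5 to 14.8). Bpifa1, a surfactant-like defence protein of upper airways (chromosome 2, 154142880 to 154149219, protein coding), had 29506 and 112296 CPM there. In the thinned secretory class a UMI of Reg3g was found in 61.4% (57.1 to 65.6) and 100% (98.4 to 100) of cells. Chil4, a chitinase-like protein of type 2 inflammation, had 1 UMI (0.11 CPM) against 46.9 CPM, 423-fold lower (75.4 to 16782), and 5.56% of the unthinned secretory cells of the primary BC host carried it. Of 13 measured members of the antimicrobial and acute phase list, 5 were lower and 2 higher in the secretory class, with a median of -0.39. The higher members were Hp, haptoglobin, at 1032 and 203 CPM, and Retnla, another type 2 product, at 93.7 and 20.1 CPM. The list thus held members on both sides.

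In the other classes Bpifa1 and Reg3g were lower as well, and both were also found in immune cells. The part of free RNA in these values was not tested. Bpifa1 had 1643 and 20666 CPM in the basal class and 86.2 and 1600 CPM in the ciliated class. Immune cells, which should lack it, had 88.0 and 496 CPM. In the primary BC host the thinned share of cells with Bpifa1 was 89.1% (78.8 to 95.5) in immune cells, at a median depth of 11612 UMIs before thinning. It was 93.6% in basal cells and 79.3% in ciliated cells, so shares there do not set these classes apart from immune cells. The class levels were higher, at 20666 CPM in basal and 1600 CPM in ciliated cells against 496 CPM in immune cells. In that host the 10% of cells with most Bpifa1 held 70.6% of its thinned UMIs in the ciliated class. In basal cells this was 50.6% and in immune cells 26.1%. The ciliated class level thus does not show that most ciliated cells exceed immune cells. The ciliated value of the iBC host was no higher than that of its immune cells. Reg3g in ciliated cells had 6104 CPM in the iBC host and 14157 CPM in the primary BC host, against 12 and 229 CPM in immune cells, and was found in 79.8% of thinned ciliated cells of the iBC host and in 5% of its immune cells. In the primary BC host the thinned shares with Reg3g were 99% of ciliated, 82.3% of basal and 76.6% (64.3 to 86.2) of immune cells. The basal share there does not set basal cells apart from immune cells. Basal levels of Reg3g were 215 and 2486 CPM, above the 12 and 229 CPM of immune cells. Lcn2, which withholds iron from bacteria, had 26.0 and 121 CPM in the ciliated class. In the basal list 4 of 10 members were lower and 1 higher (median -0.64), and in the ciliated list 3 of 10 and 1 (median -0.09).

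Other secretory products also differed. Agr2, a folding enzyme of mucus-making cells, had 661 and 3068 CPM in the secretory class, and Muc5ac, the gel mucin of goblet cells, 69.2 and 162 CPM. Tff1, a small mucus-stabilising peptide, had 40.1 and 17.1 CPM. Of 13 measured mucin and goblet genes 1 was higher and 2 were lower, with a median of -0.34. In ciliated cells the membrane mucins were higher: Muc16 had 742 and 284 CPM and Muc4 382 and 176 CPM, 2 of 6 members called higher and 0 lower. Scgb1a1, the club cell secretoglobin and a marker that defined the class, had 244608 and 78062 CPM in the secretory class; as a gate marker it is given as a description, and because it made up so large a share of the sum, ratios are set against the median of all genes.

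By the size rule, the secretory genes with the highest ratios were Sftpb, Ly6k, Hspa1a, Cd74, Hspa1b, Ly6d, B4galt5 and H2-Ab1. Sftpb, a surfactant protein made in the distal lung and in some airway secretory cells, had 147 and 3.16 CPM (46.7-fold, 30.1 to 76.7) and was found in 28.7% and 1.28% of thinned cells. B4galt5, a galactosyltransferase, had 67.0 and 6.95 CPM. The lowest were Ramp1, Reg3g, Rpl29, Dhrs9, Sult1b1, Sema3d, Apobec3 and Tmc5. Ramp1, a partner of the receptor for the neuropeptide CGRP, had 2.11 and 105 CPM, 50-fold lower (31.8 to 83.5). Dhrs9, which oxidises retinol, had 4.76 and 93.0 CPM, and Sult1b1, a sulfotransferase, 5.65 and 67.1 CPM. Psca, a surface protein of the Ly6 family, had 41.3 CPM against 0 UMIs, at least 87.2-fold higher by a floor of 3 UMIs over the class sum.

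Some genes of cholesterol synthesis were lower in secretory cells of the iBC host. There 5 of 15 measured members were called lower and 0 higher, with a median of -0.81. Cyp51, a demethylase of the sterol ring, had 19.1 and 71.4 CPM, and Fdps, which makes farnesyl diphosphate, had 20.6 and 61.0 CPM. In the basal class 0 of 5 and in the ciliated class 0 of 9 members were called in either direction, with medians of -0.02 and 0.10. Whether the classes differ in this respect was not tested.

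Some heat shock genes were higher in the iBC host in each class. Of the list 4 of 16 measured members were called higher in the basal class, 7 of 15 in the secretory and 3 of 14 in the ciliated, and 0, 1 and 0 lower, with medians of 0.49, 0.80 and 0.47. Hspa1a, the inducible Hsp70 (chromosome 17, 34969190 to 34972156, protein coding), had 238 and 8.85 CPM in the secretory class (26.9-fold, 20.6 to 35.7), 113 and 30 CPM in the basal class and 47.0 and 16.5 CPM in the ciliated class. Its neighbour Hspa1b had 253 and 16.9 CPM, 168 and 43.1 CPM, and 59.4 and 17.3 CPM in the same order. Hspa1a was seen in 51.0% (46.6 to 55.3) of thinned secretory cells in the iBC host and in 4.70% (2.37 to 8.26) in the primary BC host. Dnajb1, the cochaperone that is induced with Hsp70, had 272 and 67.8 CPM in the ciliated class. Hspb8, a small heat shock protein, was the secretory member called lower, at 14.2 and 65.1 CPM.

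The sequences before Hspa1a and Hspa1b are shown because both genes moved together and because these upstream sequences are nearly the same. They lie before the start site and do not show how reads were split between Hspa1a and Hspa1b, which is uncertain. Capitals mark GAANNTTC, a pair of inverted units of the heat shock element read by the factor HSF1, searched on both strands in the 250 bases before the start site (RefSeq, GRCm38.p6).
Hspa1a: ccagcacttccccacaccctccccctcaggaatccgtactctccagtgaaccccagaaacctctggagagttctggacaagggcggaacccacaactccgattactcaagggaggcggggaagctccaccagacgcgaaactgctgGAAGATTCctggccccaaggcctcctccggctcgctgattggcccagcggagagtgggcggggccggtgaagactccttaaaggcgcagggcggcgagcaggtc
Hspa1b: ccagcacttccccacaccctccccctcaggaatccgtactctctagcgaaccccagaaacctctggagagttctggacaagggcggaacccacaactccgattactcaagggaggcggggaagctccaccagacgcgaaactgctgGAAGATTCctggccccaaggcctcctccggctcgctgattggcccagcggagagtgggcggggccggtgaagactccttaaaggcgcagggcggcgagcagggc
These are chr17:34972157-34972406 and chr17:34959239-34959488, both on the minus strand, and 247 of their 250 bases are identical. The match begins 104 bases before each start site. Among the 17 genes of the list 13 had a promoter entry and 6 of those held the motif, as did 6.69% of all windows.

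Immediate early genes, which are switched on within minutes of a stimulus, were called in few cases. In the basal class 4 of 17 measured members were called higher and 0 lower, with a median of 0.30. Egr1 had 168 and 30.1 CPM, Myc 41.2 and 9.93 CPM, and Klf4 157 and 63.6 CPM. In the secretory class 0 of 14 were higher and 1 lower (Socs3, 15.4 and 52.4 CPM), and in the ciliated class 1 of 15 was higher (Klf2, 84.8 and 33.2 CPM).

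**Figure D4:**
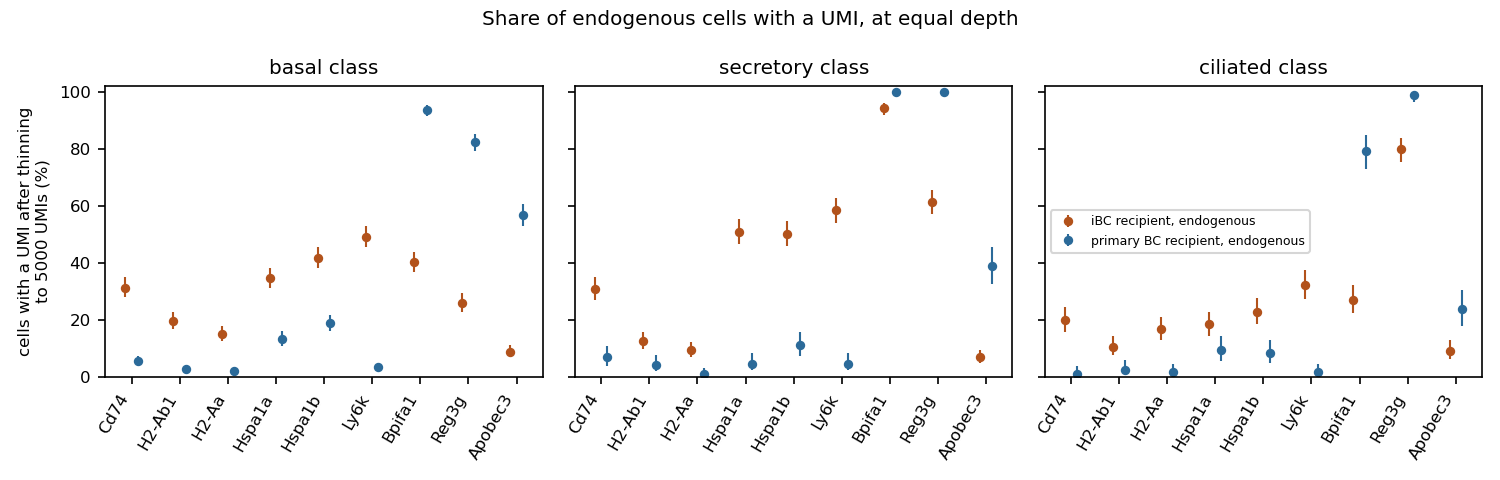
Share of endogenous cells with at least 1 UMI of 9 genes after each cell was thinned to 5000 UMIs, by class (panels) and library (colours). Points are shares in percent and bars exact 95% Clopper-Pearson intervals for counting error; Cd74, H2-Aa, Hspa1b and Ly6k are more often seen in the iBC host and Bpifa1, Reg3g and Apobec3 in the primary BC host in all 3 classes; the basal and ciliated Bpifa1 and the basal Reg3g shares of that host are near those of its immune cells.

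Basal cells, the stem cells of the layer, differed further in signalling and surface genes. By the size rule the highest ratios were those of Ly6k, Serpina3n, Cd74, Ly6d, H2-Ab1, H2-Aa, H2-Eb1 and H2-Q7. Ly6k, a membrane-anchored protein of the Ly6 family (chromosome 15, 74796874 to 74799986, protein coding), had 263 and 7.45 CPM, 35.3-fold higher (27.9 to 45.4). Serpina3n, a secreted protease inhibitor, had 84.7 CPM against 0.21 CPM (2 UMIs), 409-fold (113 to 3389), and was found in 25.9% and 0.14% of thinned basal cells. Ly6d, a further Ly6 protein, had 519 and 48.9 CPM. In the Ly6 list 3 of 7, 3 of 7 and 4 of 9 measured members were called higher in the basal, secretory and ciliated classes, while the list medians were -0.16, -0.20 and 0.63; the secretory median was 0.63 with TMM scaling, which let 1 more member pass, and 0.04 without a filter. A few members thus carried the difference. Ly6 and Serpina3 genes are families of close copies, and how reads were split among them is uncertain.

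The lowest basal ratios by that rule were those of Bpifa1, Rpl29, Smim6, Apobec3, Cyp2a5, Ifi27l2a, Adh7 and Sorbs2. Apobec3, a cytidine deaminase that restricts retroviruses (chromosome 15, 79891659 to 79915906, protein coding), had 20.4 and 179 CPM, 8.75-fold lower (7.30 to 10.6). Adh7, an alcohol dehydrogenase that also acts on retinol, had 439 and 1468 CPM. Smim6, a small membrane protein, had 20.3 and 192 CPM. Rpl29 had 96.5 and 1216 CPM, but it has many near-identical copies in the genome, and none of the 29 measured ribosomal protein genes of the list without it was called in any class.

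A minority of detoxification enzymes was lower in basal cells of the iBC host. Of 7 measured cytochrome P450 genes 3 were lower and 0 higher, with a median of -0.50. Cyp2a5, which oxidises nicotine and coumarin, had 135 and 531 CPM in the basal class; with classes taken from clusters its ratio was -0.85, under 2-fold. Cyp2b10 had 0.82 and 26.5 CPM. Of 20 glutathione and NRF2 target genes 3 were lower (Gpx2, Gclc and Gsto1) and 0 higher. Gclc, the enzyme that limits glutathione synthesis, had 101 and 245 CPM. Of 14 other phase II and flavin enzymes 3 were lower and 0 higher, among them Adh1 at 49.9 and 134 CPM. Several of these are abundant in secretory cells, whose summed markers in the basal class were 14701 CPM in the iBC host and 15090 CPM in the primary BC host. In the secretory class itself the same markers summed to 290799.8 and 115836.5 CPM, so equal basal sums do not mean equal carryover of other secretory RNA. Cyp2a5 had 2706 and 4550 CPM in the secretory class. The part of secretory RNA in the basal values was not tested.

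A few members of signalling lists were called in basal cells, while most were not. Ctgf, a matricellular protein induced by YAP, had 356 and 47.0 CPM and was seen in 53.9% (50.2 to 57.6) and 15.3% (12.7 to 18.1) of thinned basal cells. Of 8 measured YAP target genes 2 were higher and 1 lower (F3, tissue factor, 747 and 1567 CPM), with a median of 0.48. Nrg1, a ligand of the ERBB receptors, had 152 and 24.5 CPM. Among 8 Wnt pathway genes Sfrp1, a secreted Wnt antagonist (127 and 34.9 CPM), and the ligand Wnt10a (88.5 and 31.1 CPM) were higher, and Dkk3 was lower (12.4 and 40.2 CPM). Of 9 TGF-beta and BMP genes the ligands Tgfb2 (23.7 and 6.93 CPM) and Bmp4 (46.1 and 19 CPM) were higher and 0 lower. Krt14, a keratin of basal cells, had 354 and 150 CPM. Krt4, a keratin of suprabasal and hillock cells, had 35.7 and 129 CPM, and the 6 hillock markers summed to 213 and 345 CPM in this class. Receptors and targets of these pathways mostly were not called: Egfr had 72.9 and 57.6 CPM, and 0 of 9 Notch genes passed 2-fold.

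Lists of ciliary genes had no called member in the ciliated class, which was itself gated on ciliated markers. None of 42 measured dynein arm and axoneme genes, of 25 intraflagellar transport genes or of 9 regulators of multiciliated cells was called, with medians of -0.23, -0.20 and -0.15. Over all genes of the class 4.37% were called in either direction. The 9 ciliated markers summed to 8875 CPM in the iBC host and 11393 CPM in the primary BC host, and the median ciliated scores were 3.11 and 3.55. Foxj1, the regulator of motile cilia and a gate marker, had 725 and 825 CPM. The highest ratios by the size rule were those of Cd74, Prss30, Sptssb, Ly6k, H2-Aa, Cidea, H2-Ab1 and Cd244. Prss30, a serine protease, had 170 and 4.71 CPM (36.1-fold, 22.7 to 61.2). Sptssb, a subunit that sets the chain length of sphingolipids, had 180 and 9.16 CPM. Cidea, a protein of lipid droplets, had 249 and 22.5 CPM. The ciliated class of the iBC host also had more Nqo1, a quinone reductase driven by NRF2, at 62.4 and 4.45 CPM, and Mgst1, a glutathione transferase, at 153 and 35.6 CPM. Of 20 measured glutathione and NRF2 target genes in that class 2 were called higher and 0 lower, with a median of 0.15. Over all genes of the class 2.41% were called higher.

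Among the lowest ciliated ratios were Gtsf1l, Rpl29, Pttg1, Fanca, Serpina9, Sftpc, Cadm1 and Myl4. Gtsf1l, a zinc finger protein, had 5.76 and 169 CPM (29.3-fold lower, 19.7 to 45.6). Pttg1, securin, which holds sister chromatids together until anaphase, had 5.30 and 132 CPM, and Fanca, a core subunit of the Fanconi DNA repair complex, 0.92 CPM (4 UMIs) and 62.3 CPM. The 6 cycling markers summed to 5.53 CPM in the ciliated class of the iBC host and 51.3 CPM in that class of the primary BC host, and the 5 deuterosomal markers to 39.9 and 90.5 CPM; their part in these differences was not tested. Cadm1, an adhesion molecule, had 3 and 72.2 CPM, and Serpina9, a serpin, 21.2 and 257 CPM. In the serpin list 1 of 8 ciliated members was higher and 2 were lower. Tight junction genes had 3 of 12 higher, Cldn23, Cldn4 and Marveld2, and 0 lower.

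A set of genes was called the same way in every class. Of 4151 genes tested in all 3, 17 (0.41%) were higher in the iBC host in each class and 13 (0.31%) lower in each, while 220 were higher in exactly 1 class and 34 in 2, and 215 and 38 were lower. By the size rule the named genes on the high side were Cd74, Ly6k, H2-Aa, H2-Ab1, Eif3j2, H2-Eb1, Phlda1 and Ccl20, and on the low side Rpl29, Slc7a2, Bpifa1, Ramp1, Apobec3, Anxa8, Smim6 and Reg3g. Phlda1, a gene of epithelial stem cells, had 83.6 and 15.1 CPM in the basal class and 112 and 11.8 CPM in the ciliated class. Ccl20, which draws dendritic cells and Th17 cells through CCR6, had 281 and 66.9 CPM in the basal class and 43.9 and 6.95 CPM in the secretory class. Thinned basal shares with Ccl20 were 16.3% (13.7 to 19.2) and 10.3% (8.17 to 12.8). In the iBC host 10% of thinned basal cells held 94.3% of its UMIs. Thinned secretory shares were 6.84% (4.84 to 9.35) and 2.99% (1.21 to 6.07), and these intervals overlap. The ciliated value of Ccl20 also rested on few cells, 28.8 and 1.31 CPM (5 UMIs). Its ciliated ratio of 2.45 became 0.22 with a stricter gate, 0.37 with a looser one and 0.33 without called doublets. Slc7a2, a carrier of arginine, had 6.21 and 41.4 CPM in the basal class. Anxa8, an annexin of stratified epithelia, had 68.2 and 374 CPM in the ciliated class.

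The remaining genes of this set were chosen for display after their values were seen. On the high side they were Ftl1-ps1, BC018473, Hspa1a, Hspa1b, H2-Q7, Timp3, Apoe, Lbp and Fam46b, and on the low side Adh7, Eif3j1, Fbxo32, A2ml1 and Gm20186. Ftl1-ps1, a pseudogene of the ferritin light chain, had 1251 and 10.3 CPM in the basal class. BC018473 had 117 CPM in the basal class of the iBC host and 0 UMIs in the primary BC host, at least 376-fold higher against a floor of 3 UMIs over the class sum. Eif3j2 was high (44.3 and 1.76 CPM in the basal class) where its close copy Eif3j1 was low (25.5 and 59.1 CPM). How reads were split between such copies is uncertain. Apoe, a carrier of lipids that basal cells express strongly, had 3976 and 1322 CPM in the basal class, and Timp3, an inhibitor of matrix proteases, 984 and 334 CPM.

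The donor-derived libraries of the same animals give a second look at these genes in cells that the selection did not use, although the strain label, days and library differ there as well and the transplants differ in origin. Of the 17 genes, 10 were also called higher in all 3 donor-derived classes of the iBC host and 3 in none; of the 13, 11 were also called lower in all 3 and 1 in none. Over all calls, 76.5% of basal, 78.4% of secretory and 57% of ciliated genes called higher that could be tested in donor-derived cells were called higher there, and 85.7%, 70.3% and 64.8% of those called lower were called lower. Of all genes tested in those libraries, 4.28%, 5.64% and 3.94% were called higher and 5.96%, 7.13% and 6.25% lower in the same order of classes. In donor-derived basal cells Apobec3 had 31.4 and 164 CPM and H2-Q7 162 and 16.1 CPM.

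Ly6k and Ccl20 had an opposite call in at least 1 donor-derived class. Ly6k had 7.20 and 9.57 CPM in the donor-derived basal classes of the iBC and primary BC hosts and 0.39 and 15.4 CPM in the secretory ones, so among the 4 libraries it was high in the endogenous cells of the iBC host alone. Ccl20 was lower in donor-derived basal cells of the iBC host, at 21.4 and 47.1 CPM, and higher in donor-derived secretory cells, at 65.3 and 8.18 CPM. Cd74 went further in the same direction, with 2204 and 19.6 CPM in donor-derived basal cells, and Reg3g had 8.68 and 1209 CPM there.

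**Figure D5:**
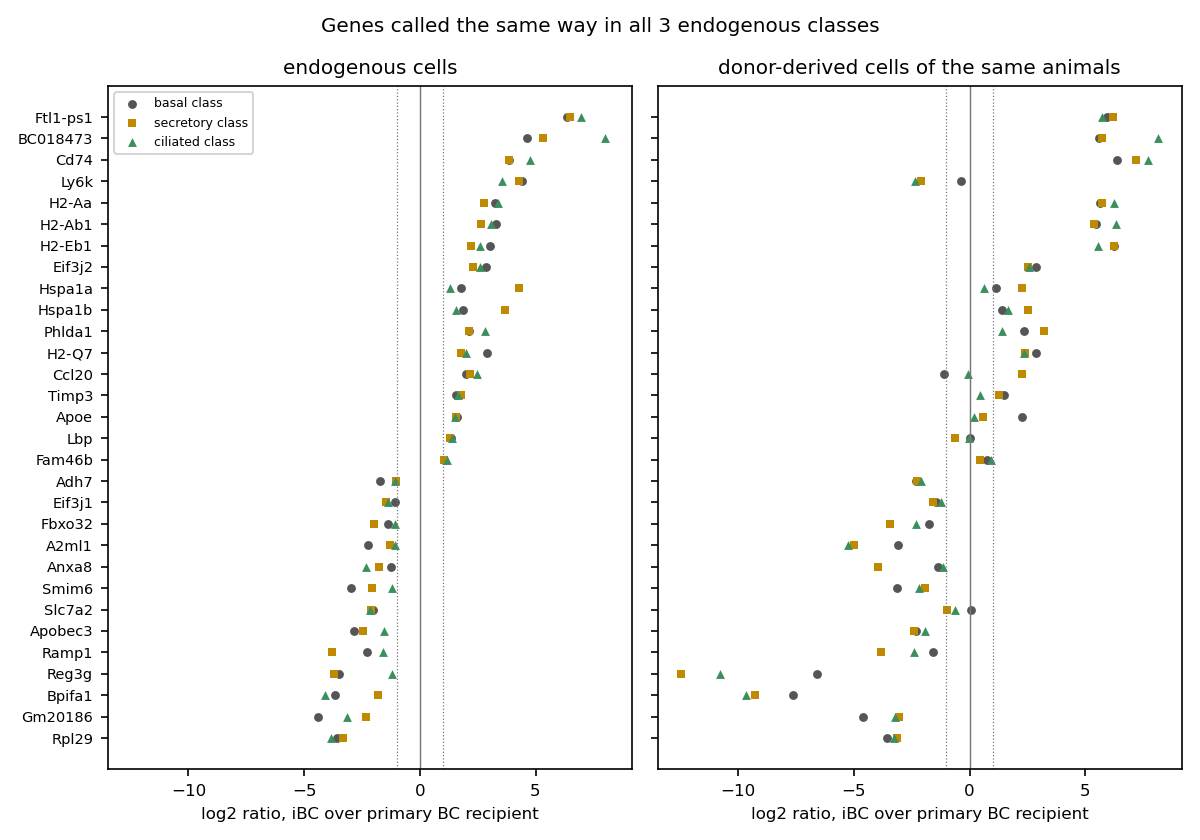
The 30 genes called the same way in all 3 endogenous classes (left) and the same genes in the donor-derived libraries of the same animals (right). The x axis is the log2 ratio of CPM plus 5, iBC over primary BC host, relative to the median of all genes; symbols are classes and dotted lines mark 2-fold. All 30 lie beyond 2-fold on the left by construction, and on the right Ly6k, Ccl20, Lbp, Slc7a2 and Apoe lie near or across 0 in at least 1 class.

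Several lists had no called member in any class: 28 nuclear oxidative phosphorylation genes, 13 mitochondrially encoded genes, the circadian clock (13, 11 and 12 measured), imprinted genes (5, 6 and 6), and cell cycle inhibitors and DNA damage genes (8, 6 and 8). Over all genes tested, 2.9%, 3.81% and 4.37% were called in either direction in the basal, secretory and ciliated classes. At such shares few or no calls fall in lists of this size, so these counts say little about the members. Ribosomal protein genes had medians of 0.32 in the basal, 0.50 in the secretory and -0.06 in the ciliated class, with 0 of 29 past 2-fold. The clock genes lay at -0.12, 0.19 and 0.01.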

How the data were processed

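Single cells were captured on the 10X Chromium system, per the labels' protocols. The deposited files give UMI counts for each gene in each cell barcode. The authors used Cell Ranger, STARsolo and Seurat with GRCm38, per the submitters' processing notes; versions, the role of each tool, the use of strand and the choice of barcodes are not given in the sources used here. That build comes from C57BL/6J mice, and its effect on the library labelled 129 X1/S1 was not tested. Of 30907 gene IDs 30843 matched GENCODE vM21, and 775 of 785 list entries matched.

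Barcodes under 500 genes (1 and 3) or over 20% mitochondrial UMIs (40 and 52) were removed, and called doublets stayed in the class sums except in one alternative. Class sums were compared as log2 of CPM plus 5, centred on the median, with exact Poisson and Clopper-Pearson 95% intervals. With 1 library a side no p-value is given. The members and lists were chosen with earlier results of these data known, and the score cuts were set with the data at hand.

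Genes were named by size: the 8 highest and 8 lowest ratios of a class where either sum reached 50 CPM and 50 UMIs, the 8 each way called in all 3 classes with the largest smallest ratio, and the 3 list members farthest from 0. The first rule skipped gate markers, sex-linked genes, the reporter, placeholder names and genes below 10% of their CPM in another class; further genes printed were chosen after their values were seen, and some members of lists are not reported here. The calculation was tested on simulated data. Alternatives were TMM scaling (edgeR 4.0.16), equal weight per cell, thinning, other pseudocounts, filters and gates, clusters (scanpy 1.11.5, leidenalg 0.10.2), and sums without doublets or reporter-positive barcodes.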

Additional observations from a re-analysis of the deposited data

Results flagged for a closer look

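2 genes were called in opposite directions in different classes of endogenous cells; with 1 library a side the difference between classes was not tested. Cyp2a5 had a ratio of -1.93 (log2) in the basal class, at 135 CPM in the iBC host and 531 CPM in the primary BC host, and of 1.33 in the ciliated class, at 6183 and 2510 CPM. Lrrc26, an auxiliary subunit of BK potassium channels, had a ratio of -1.34 in the basal class (39.1 and 107 CPM) and of 1.05 in the ciliated class (68.0 and 30.9 CPM). In the secretory class the ratios were -0.61 for Cyp2a5 and -0.36 for Lrrc26, and neither was called.

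Among endogenous cells of the primary BC host 30 barcodes had a UMI of the EGFP reporter, 2.19% of its cells, against 1 barcode in that of the iBC host. They were 12 of 234 secretory cells (73 UMIs), 8 of 710 basal cells, 4 of 65 immune cells (4 UMIs), 3 of 51 cells that passed more than 1 cut (105 UMIs) and 3 others.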

How the results depend on the processing

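With 1 library a side, leaving out a replicate could not be done, and the spread between animals is unknown. No paired analysis was possible because each side is 1 library and the labels carry no replicate numbers. No named gene ratio changed its sign under any alternative run. These genes were named for their large ratios, and several alternatives reuse the same class sums, so the kept signs were largely fixed by the selection. Of 975 named gene ratios under alternatives 41 moved, and 4 fell under 2-fold: Ccl20 in ciliated cells under 3 alternatives and Cyp2a5 in basal cells under 1, with the values given beside them above. The scaling, weighting, thinning, doublet and reporter alternatives moved no count of called genes by over 1.5 times.

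Thresholds set the counts by construction. With a pseudocount of 20 CPM, 47 genes were higher and 44 lower in the basal class, 51 and 48 in the secretory and 84 and 71 in the ciliated. With a filter of 100 CPM these were 28 and 29, 24 and 32, and 43 and 41. Without a filter they were 141 and 144 in the basal and 133 and 172 in the secretory class, and 227 lower in the ciliated class. MHC class II medians in the basal, secretory and ciliated classes were 3.92, 3.51 and 3.88 with a pseudocount of 1 CPM, 2.16, 1.60 and 1.89 with 20 CPM, and 1.61, 1.25 and 1.10 without a filter; the secretory one was 2.41 with a looser gate and 2.26 from clusters. The basal mucin median was -1.06 with 20 CPM, -0.16 without a filter and -1.66 with a looser gate. The secretory chitinase-like median of -1.03 became -0.18 without a filter, -0.16 with 100 CPM and -0.26 with a stricter gate. The ciliated chemokine median became 0.80 with 20 CPM, 0.21 without a filter, 0.77 with a stricter gate and 0.79 with a looser one. With a stricter gate basal cells were 31.8% and 45.8% of the libraries, ciliated cells of the iBC host 17.3% and secretory cells of the primary BC host 14.7%. From clusters, basal cells were 49.1% and 57.7%, and secretory cells of the primary BC host 19.6%. Among other list medians printed above, the antimicrobial one became 0.15 after thinning and 0.57 with a filter of 100 CPM in ciliated cells, -0.03 without a filter and -0.08 from clusters in secretory cells, and -0.37 without a filter and -0.95 with a looser gate in basal cells. The interferon-stimulated one became -0.18 from clusters in basal cells and 0.18 with a filter of 100 CPM in ciliated cells, and the ciliated cholesterol one -0.26 after thinning. The cause of these moves in lists and shares was not tested.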

Other observations

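Some further genes of the lists differed in endogenous cells. In the secretory class the receptor Notch1 had 24.3 CPM in the iBC host and 9.0 CPM in the primary BC host, with 2 of 6 measured Notch genes called higher and 0 lower. Bmp4 had 27.8 and 0.32 CPM there, the latter under the floor of 3 UMIs over the class sum. Of 7 measured TGF-beta and BMP genes in that class 1 was called higher and 1 lower. Slc12a2, the basolateral sodium, potassium and chloride cotransporter, had 175 and 49.9 CPM in the secretory class. Ccl28, a chemokine for plasma cells, had 60.1 and 24.3 CPM in the ciliated class.

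Called genes were spread over the genome. Of 8176 genes tested in at least 1 class 535 (6.54%) were called in at least 1. The share was 6.67% on chromosome 17, which holds the MHC and both Hspa1 genes, 8.7% on chromosome 1 and 2.4% on chromosome X; these chromosomes were chosen after their values were seen.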
